A study of Mus musculus with 9 samples.

Results

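The genes described here are 34 genes of fatty acid oxidation and ketone body metabolism, followed across 9 whole-tissue arrays of mouse small intestine. They comprise the carnitine shuttle, the enzymes of mitochondrial and peroxisomal beta oxidation, their electron acceptors, ketone body enzymes and a few companions such as catalase. A member was measured by every probe set annotated to its symbol and to no other gene. All 34 were found, on 58 probe sets, among 13830 genes that passed the filter on dim signals. Of the 58 probe sets 56 passed that filter, and only the second probe sets of Acadl and Etfdh did not, so that no member was lost. For 18 members a single probe set was tested and for 16 there were several, of which the brightest stands for the gene below. The rule goes by gene symbol and sets no threshold on a measured value, but the list was drawn up with earlier results of these arrays known.

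Jejunum was taken 10 cm from the pylorus and ileum 1 cm from the cecum, from male mice 6 to 8 weeks old. Control jejunum and control ileum came from separate Gata4 loxP/+ VilCre mice, and mutant jejunum came from Gata4 loxP/- VilCre mice, with 3 arrays in each of the 3 groups. All mice thus carried the villin-Cre transgene, which is active in intestinal epithelium and not in the muscle, stroma or blood cells that whole tissue also holds, and all bore a floxed allele of Gata4, which encodes a DNA-binding regulator of the GATA family. Controls had a wild-type second copy and mutants a null one, so that the floxed allele was exposed to Cre in control animals too. No mutant ileum was analysed here. Expression was measured on the Affymetrix mouse whole-genome array, and all levels below are quantile-normalized log2(intensity + 16) values of single probe sets. They can be compared between arrays but not between genes. Differences on this scale understate the change of dim probe sets.

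Long-chain fatty acids enter mitochondria as carnitine esters and are shortened there in a repeated spiral of oxidation, hydration, oxidation and cleavage, which passes electrons to the respiratory chain and yields acetyl-CoA. Peroxisomes run a parallel spiral for very long and branched chains, which produces hydrogen peroxide that catalase removes. Acetyl-CoA can be joined into ketone bodies, which other tissues burn. Absorptive cells of the small intestine take up dietary fat, package most of it into chylomicrons and oxidise part of it, and many of these enzymes are known targets of the nuclear receptor PPARα.

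The ileum arrays were dimmer as deposited, with trimmed mean intensities of 96.8 to 122 against 150 to 172 in control jejunum and 147 to 180 in mutant jejunum, a ratio of 1.86 between the brightest and the dimmest array. Precision here is limited by the number of arrays. Mutant jejunum 3 stood apart from all other arrays on the second principal component and had the lowest estimated array weight, 0.384. The Gata4 probe sets did not differ between mutant and control jejunum (log2 differences of -0.02, adjusted p = 0.959, and 0.65, adjusted p = 0.195, in limma). The sources used here do not say where their probes lie relative to the deleted segment, so they do not check the labels. Epithelial markers summed to 15.61 to 15.66 in control jejunum, 15.74 to 15.89 in mutant jejunum and 15.91 to 15.97 in ileum on the log2 scale, with 6 of 11 higher in ileum than in control jejunum, 3 of 11 higher in mutant jejunum and none lower in either. Villin itself, Vil1, stood at 12.65 to 12.99 on all 9 arrays, so the labelled epithelium was present in all groups. Smooth muscle markers summed to 13.00 to 13.56, 12.77 to 13.43 and 13.99 to 14.38 in the same order, with 8 of 10 higher in ileum. T cell markers summed to 12.41 to 12.84, 12.53 to 13.22 and 10.46 to 12.01, with 3 of 7 lower in ileum. B and plasma cell markers summed to 13.05 to 13.32, 13.16 to 13.26 and 12.08 to 12.80, also with 3 of 7 lower in ileum. Of the myeloid markers 2 of 8 were lower in ileum, and of the markers of enteric neurons and glia 3 of 8 were higher and 1 was lower. Adiponectin, Adipoq, which defines fat cells, stood at 8.65 in mutant jejunum 2, 6.54 in control ileum 2 and 9.34 in control ileum 3, and between 4.04 and 5.09 on the other arrays. The summed adipocyte markers ranged over 10.05 to 10.31 in control jejunum, 9.77 to 11.31 in mutant jejunum and 9.26 to 11.68 in ileum, with 2 of 5 lower and none higher in ileum than in control jejunum. By array these sums were 9.84, 11.31 and 9.77 in mutant jejunum and 9.26, 9.33 and 11.68 in ileum. Control ileum 2 thus stood out in Adipoq and not in the sum. The part of muscle, immune cells, nerve and fat in the differences below was not tested, and in whole tissue fewer cells of a type and less RNA per cell cannot be told apart.

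In control ileum, 22 of the 34 genes were expressed at a lower level than in control jejunum and none at a higher level. In Gata4 mutant jejunum, 1 gene rose and 4 fell relative to control jejunum. The gene that rose was Slc25a20, the carnitine-acylcarnitine carrier, at 1.81 times its control level. The 4 that fell were Acaa2, Acat1, Crat and Cat, with log2 differences of -0.59 to -0.87. Mutant jejunum stood above control ileum for 14 genes and below it for none. The mutant and the ileum comparisons share the control jejunum arrays, so their values are given side by side and not related to each other.

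Each gene was called at an adjusted p under 0.05 in limma, with the adjustment running over all 29307 probe sets tested. The 22 genes lower in ileum make up 64.7% of the members, where 9.12% of all genes tested were called lower and 8.79% higher in ileum. No member was higher in ileum in limma, and none at an unadjusted p under 0.05 either, where 25 were lower. The 4 genes that fell in mutant jejunum are 11.8% of the members beside 2.29% of all genes, and the 1 that rose is 2.94% beside 2.1% of all genes, a share near the background. At an unadjusted p under 0.05 the mutant counts were 3 higher and 8 lower. The share of all genes at the unadjusted threshold was not counted, so the unadjusted counts here have no background beside them. The 14 genes higher in mutant jejunum than in ileum are 41.2% of the members, beside 1.97% of all genes, and in the other direction 1.7% of all genes and no member were called, also without adjustment. The median log2 difference over the 34 genes was -0.58 in ileum and -0.09 in mutant jejunum relative to control jejunum, against 0.03 and 0.00 over all genes. Between mutant jejunum and ileum it was 0.52, against -0.02 over all genes.

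**Figure D1:**
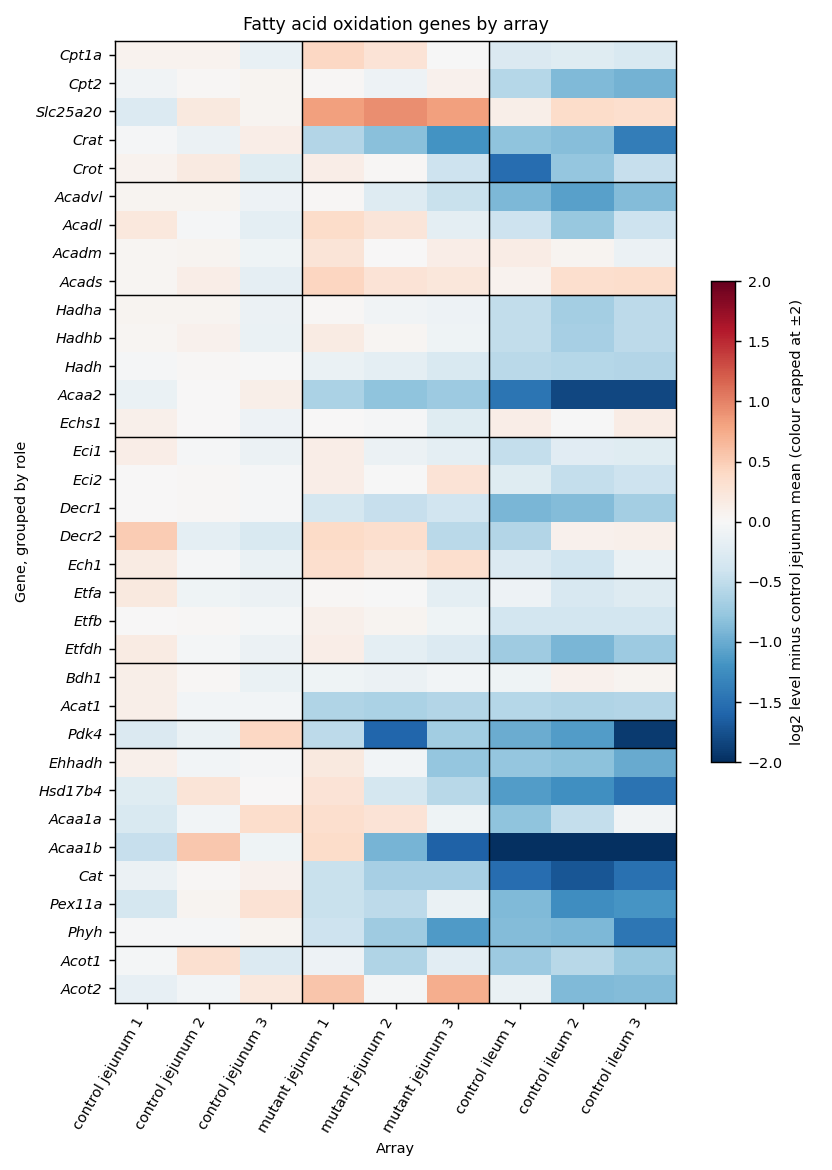
Level of each of the 34 genes on each of the 9 arrays, as the log2 difference from the control jejunum mean of that gene. Columns are arrays, genes are grouped by role, and colour is capped at 2 log2 units. Blue fills most of the 3 ileum columns, in which 22 genes were called lower, and the 3 mutant columns are mixed, with 1 gene called higher and 4 lower than control jejunum.

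The carnitine shuttle, of Cpt1a, Slc25a20 and Cpt2, moves acyl groups across the mitochondrial membranes. The related carnitine acyltransferases Crat and Crot are grouped with it here, and the 5 genes differed in direction. Slc25a20 encodes the carrier in the inner membrane that exchanges acylcarnitine for free carnitine. Its level was 9.70, 10.17 and 10.03 in control jejunum, 10.79, 10.90 and 10.79 in mutant jejunum and 10.08, 10.34 and 10.30 in ileum. All 3 mutant arrays lay above all other arrays, and the control jejunum and ileum arrays overlapped. In mutant jejunum the level rose by 0.86 ± 0.13 (SE, n = 3 against 3; limma adjusted p = 0.00548), the only rise among the 34 genes. A second probe set of Slc25a20 gave 0.85 with adjusted p = 0.0151. Mutant jejunum exceeded ileum by 0.58 (adjusted p = 0.045), which the second probe set did not call (0.39, adjusted p = 0.241), whereas ileum minus control jejunum was 0.28 with a 95% interval of -0.02 to 0.57 (adjusted p = 0.187).

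The RefSeq promoter window of Slc25a20, from 250 bases before to 50 after the gene start, is shown because it is the only member that rose and because the window holds a near match to a nuclear receptor repeat. It lies at chr9:108661886-108662185 on the plus strand of GRCm38.p6. Capitals mark the match, which begins at base 7 of the transcript, to a direct repeat of AGGTCA, the core bound by many nuclear receptors, with a single base between the copies and up to 2 mismatches.
Slc25a20 promoter: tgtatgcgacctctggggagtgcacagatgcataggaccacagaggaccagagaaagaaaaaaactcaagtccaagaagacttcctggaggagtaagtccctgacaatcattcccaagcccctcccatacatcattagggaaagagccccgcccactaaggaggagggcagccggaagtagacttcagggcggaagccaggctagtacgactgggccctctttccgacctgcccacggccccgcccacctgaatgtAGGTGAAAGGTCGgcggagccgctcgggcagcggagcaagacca

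Crat encodes carnitine acetyltransferase, which buffers acetyl-CoA as acetylcarnitine. Its level was 9.12, 9.04 and 9.29 in control jejunum, 8.56, 8.32 and 7.95 in mutant jejunum and 8.34, 8.30 and 7.77 in ileum. The control jejunum arrays stood above all 6 others, and the mutant and ileum arrays overlapped. Crat fell by 0.87 ± 0.19 in mutant jejunum (SE; limma adjusted p = 0.0328) and was 2.02-fold lower in ileum than in control jejunum (adjusted p = 0.00496). The other probe sets of Crat gave -1.49 (adjusted p = 0.136) and -0.53 (adjusted p = 0.13) in mutant jejunum and were not called, and the first of these was not called in ileum either (-1.20, adjusted p = 0.118). Mutant jejunum minus ileum was 0.14, with a 95% interval of -0.28 to 0.56.

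Cpt2, the inner membrane transferase that returns the acyl group to CoA, separated the segments and not the genotypes. Its level was 10.61, 10.70 and 10.74 in control jejunum, 10.70, 10.58 and 10.77 in mutant jejunum and 10.11, 9.79 and 9.74 in ileum. Ileum lay below all 6 jejunum arrays, 1.74-fold lower than control jejunum (limma adjusted p = 0.00124), while control and mutant jejunum overlapped with a difference of 0.00 (95% interval -0.27 to 0.26). The dimmer second probe set of Cpt2, at 5.5 to 6.4, was not called, with -0.48 in ileum (adjusted p = 0.114) and 0.20 for mutant jejunum minus ileum (adjusted p = 0.669). Crot, the peroxisomal octanoyltransferase that prepares shortened chains for export, was lower in ileum (-0.93 ± 0.25, SE; adjusted p = 0.0271). Its ileum arrays spread widely, at 8.76, 9.51 and 9.83, with the largest ileum SD of the 34 genes (0.55), and a dim second probe set gave -0.18 (adjusted p = 0.748). Cpt1a, the outer membrane transferase regarded as the control point of mitochondrial import, was not called on its brightest probe set, with -0.28 in ileum (adjusted p = 0.164) and 0.22 in mutant jejunum (adjusted p = 0.404). A dimmer probe set of Cpt1a was called lower in ileum, at -0.81 (adjusted p = 0.0427), and higher in mutant jejunum than in ileum, at 1.03 (adjusted p = 0.048).

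**Figure D2:**
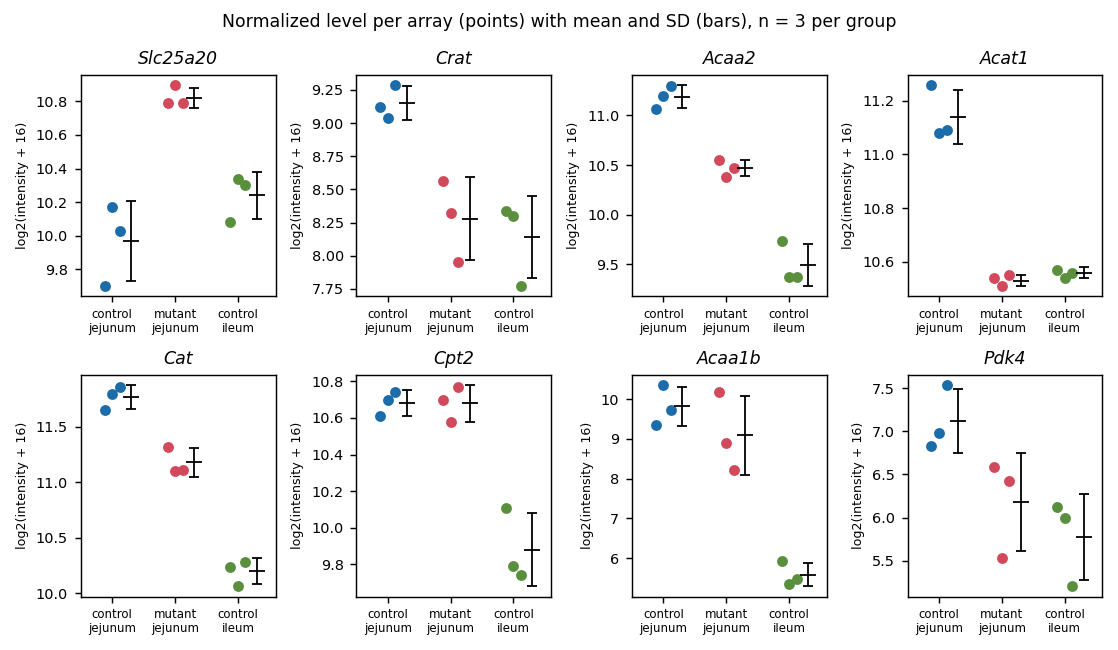
Normalized level on the log2(intensity + 16) scale for 8 of the 34 genes, 1 panel per gene, with 1 point per array in control jejunum, mutant jejunum and control ileum and bars for mean and SD (n = 3). Slc25a20 is highest in mutant jejunum, Crat and Acat1 sit at similar levels in mutant jejunum and ileum, Acaa2 and Cat step down from control to mutant jejunum to ileum, and Cpt2 and Acaa1b are low in ileum. The vertical axes differ between panels.

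The acyl-CoA dehydrogenases perform the first oxidation of the spiral and are specialised by chain length. Acadvl, for very long chains, was at 11.04, 11.04 and 10.88 in control jejunum, 11.01, 10.72 and 10.53 in mutant jejunum and 10.08, 9.90 and 10.11 in ileum. Ileum lay below every jejunum array, 1.94-fold lower than control jejunum (limma adjusted p = 0.000722), and the jejunum groups overlapped. Acadl, for long chains, was lower in ileum (-0.53 ± 0.16, SE; adjusted p = 0.0459). Acadm and Acads, for medium and short chains, were not called in either comparison. In ileum their differences from control jejunum were 0.03 (95% interval -0.21 to 0.27) for Acadm and 0.26 (-0.03 to 0.55) for Acads. None of the 4 dehydrogenases was called between mutant and control jejunum, where Acadvl gave -0.23, Acadl 0.13, Acadm 0.14 and Acads 0.31.

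Of the 5 genes for the later steps of the mitochondrial spiral, 4 were lower in ileum. Hadha and Hadhb encode the subunits of the trifunctional protein, which carries out hydration, the second oxidation and cleavage of long chains. Hadha was at 10.85, 10.86 and 10.69 in control jejunum, 10.83, 10.73 and 10.70 in mutant jejunum and 10.30, 10.12 and 10.27 in ileum. Hadhb was at 11.47, 11.52 and 11.29, then 11.59, 11.47 and 11.34, and then 10.94, 10.76 and 10.90 in the same order. For both genes the 3 ileum arrays lay below all jejunum arrays, which overlapped between genotypes. The 2 subunits were each 1.48-fold lower in ileum than in control jejunum (limma adjusted p = 0.00354 for Hadha and 0.00484 for Hadhb). In mutant jejunum they differed from control by -0.04 (95% interval -0.27 to 0.18) and 0.04 (-0.19 to 0.27). A second bright probe set of Hadhb was called alike, with -0.74 in ileum (adjusted p = 0.00711) and 0.85 for mutant jejunum minus ileum (adjusted p = 0.016). A dim one, at 4.94 to 5.86 near the filter level of 4.95, was not called, with -0.44 (adjusted p = 0.195) and 0.03 (adjusted p = 0.96).

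The promoter window of Hadha is shown because Hadha and Hadhb are neighbours on opposite strands and share most of it. It lies at chr5:30154931-30155230 on the minus strand of GRCm38.p6, and the 228 bases in capitals also belong to the window of Hadhb. The starts of the 2 genes are 272 bases apart.
Hadha promoter: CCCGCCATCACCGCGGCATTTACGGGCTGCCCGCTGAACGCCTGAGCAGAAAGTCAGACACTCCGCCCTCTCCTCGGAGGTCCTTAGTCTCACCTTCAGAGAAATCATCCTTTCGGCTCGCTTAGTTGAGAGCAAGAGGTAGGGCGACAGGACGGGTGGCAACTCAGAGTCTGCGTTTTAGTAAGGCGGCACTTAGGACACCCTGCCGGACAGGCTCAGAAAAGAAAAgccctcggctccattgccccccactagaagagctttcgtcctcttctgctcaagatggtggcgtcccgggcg

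Hadh, the dehydrogenase for medium and short chains, had levels of 12.78 to 13.39 near the top of the scale (13.9), so that its differences may be understated. It was lower in ileum (-0.56 ± 0.07, SE; limma adjusted p = 0.000526). In mutant jejunum it gave -0.21 (adjusted p = 0.161), with all 3 mutant arrays, at 13.22, 13.17 and 13.05, below the control arrays, at 13.34, 13.39 and 13.35. Another probe set of Hadh was called lower in mutant jejunum, at -0.50 with adjusted p = 0.0169, and the dimmest gave -0.71 (adjusted p = 0.194). In ileum these probe sets gave -0.79 (adjusted p = 0.000326) and -1.78 (adjusted p = 0.00108). Mutant jejunum minus ileum was 0.35 (adjusted p = 0.0312) on the brightest probe set of Hadh and was not called on the others, at 1.08 (adjusted p = 0.0547) and 0.29 (adjusted p = 0.148). Acaa2 encodes the mitochondrial thiolase that releases acetyl-CoA. It was at 11.06, 11.20 and 11.30 in control jejunum, 10.55, 10.38 and 10.47 in mutant jejunum and 9.73, 9.37 and 9.37 in ileum. The 3 groups did not overlap, with mutant jejunum between control jejunum and ileum. Acaa2 fell by 0.72 ± 0.12 in mutant jejunum (SE; adjusted p = 0.0106), was 3.24-fold lower in ileum than in control jejunum (adjusted p = 1.14e-05) and was 1.97-fold higher in mutant jejunum than in ileum (adjusted p = 0.00319). Its other probe sets gave -0.77 (adjusted p = 0.0151) and -0.56 (adjusted p = 0.084) in mutant jejunum. Echs1, the short-chain enoyl-CoA hydratase, was not called in either comparison (0.09 in ileum and -0.09 in mutant jejunum).

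Auxiliary enzymes bring unsaturated chains into a form the spiral can use. Decr1, the mitochondrial 2,4-dienoyl-CoA reductase, was at 10.92, 10.94 and 10.89 in control jejunum, 10.56, 10.45 and 10.52 in mutant jejunum and 9.99, 10.05 and 10.23 in ileum. The groups did not overlap, and ileum was 1.77-fold lower than control jejunum (limma adjusted p = 0.000323). The mutant difference of -0.40 missed the threshold narrowly (adjusted p = 0.0513), and a dimmer probe set of Decr1 was called lower, at -0.72 with adjusted p = 0.0227. Eci2, an enoyl-CoA isomerase, was lower in ileum (-0.38 ± 0.11, SE; adjusted p = 0.0447), and Eci1, Ech1 and the peroxisomal reductase Decr2 were not called there, at -0.32, -0.27 and -0.13. None of these 5 genes was called between mutant and control jejunum on its brightest probe set.

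Electrons from the dehydrogenases pass through the flavoprotein encoded by Etfa and Etfb to the oxidoreductase encoded by Etfdh. Etfdh was at 10.30, 10.10 and 10.02 in control jejunum, 10.27, 9.94 and 9.87 in mutant jejunum and 9.43, 9.22 and 9.42 in ileum. Ileum lay below all jejunum arrays, 1.72-fold lower than control jejunum (limma adjusted p = 0.00307). Etfb was lower in ileum (-0.37 ± 0.09, SE; adjusted p = 0.0192), and Etfa gave -0.23 (adjusted p = 0.215). In mutant jejunum the 3 differed from control by -0.11, 0.03 and -0.06, none of them called.

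Both ketone body enzymes among the members act in mitochondria. Acat1, the acetoacetyl-CoA thiolase that opens ketone body synthesis and closes their use, was at 11.26, 11.08 and 11.09 in control jejunum, 10.54, 10.51 and 10.55 in mutant jejunum and 10.57, 10.54 and 10.56 in ileum. All control jejunum arrays stood above all others, and the mutant and ileum arrays overlapped. Acat1 fell by 0.61 ± 0.09 in mutant jejunum (SE; limma adjusted p = 0.00478) and was lower in ileum than in control jejunum (-0.59, adjusted p = 0.00176). Mutant jejunum minus ileum was -0.02 with a 95% interval of -0.23 to 0.18. Of its other probe sets, 1 was also called lower in mutant jejunum (-0.73, adjusted p = 0.012) and 1 was not (-0.44, adjusted p = 0.166). Bdh1, which interconverts acetoacetate and 3-hydroxybutyrate, was called in neither comparison, with 0.01 in ileum (95% interval -0.22 to 0.24) and -0.08 in mutant jejunum (-0.31 to 0.14).

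Pdk4 encodes a kinase that inhibits pyruvate dehydrogenase and so spares glucose when fat is burned. It was at 6.83, 6.98 and 7.54 in control jejunum, 6.59, 5.53 and 6.43 in mutant jejunum and 6.12, 6.00 and 5.20 in ileum. The control jejunum arrays lay above all others, and the spread within each group was wide. Pdk4 was 2.54-fold lower in ileum than in control jejunum (limma adjusted p = 0.0156), and its mutant difference of -0.93, the most negative of the 34 genes, was not called (adjusted p = 0.156).

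**Figure D3:**
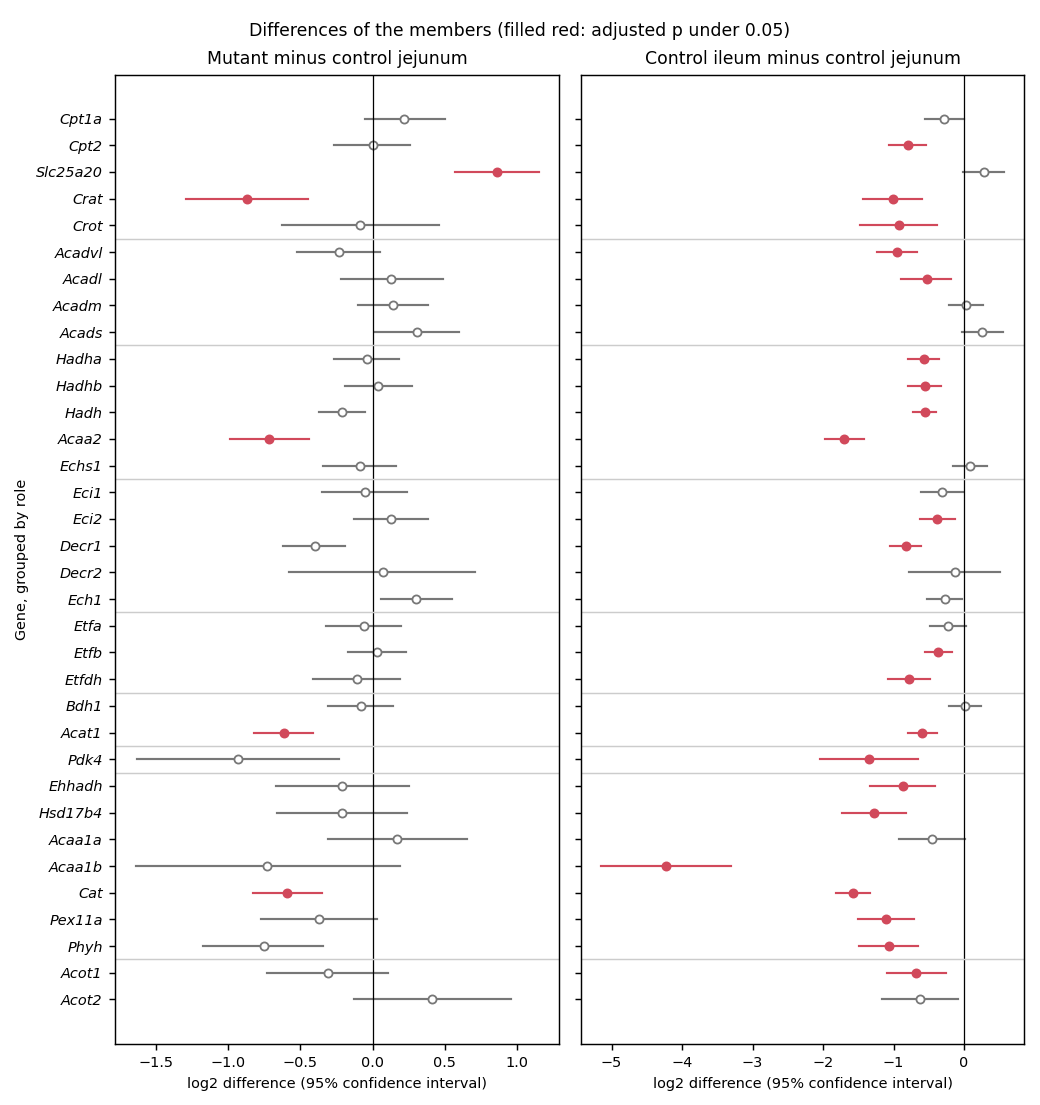
Log2 difference of each of the 34 genes with its 95% confidence interval, for mutant jejunum minus control jejunum on the left and control ileum minus control jejunum on the right. Filled red points passed an adjusted p of 0.05, which were 5 genes on the left and 22 on the right, and open grey points did not. Both panels share the control jejunum arrays.

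The 7 genes of peroxisomal oxidation had a median difference of -1.11 in ileum, and 6 of the 7 were lower there. Acaa1b, a peroxisomal thiolase, was at 9.36, 10.36 and 9.73 in control jejunum, 10.18, 8.89 and 8.21 in mutant jejunum and 5.93, 5.35 and 5.48 in ileum. The ileum arrays lay far below all jejunum arrays, near the filter level of 4.95, and the jejunum groups overlapped. Acaa1b was 18.8-fold lower in ileum than in control jejunum (-4.23 ± 0.42, SE; limma adjusted p = 8.3e-05), the most negative difference of the 34 genes, and mutant jejunum exceeded ileum 11.4-fold (adjusted p = 0.00227). The size depends on the pseudocount because the ileum levels are low: with 64 in place of 16 the log2 differences were -3.30 and 2.64, and with 1 the first was -4.77. Its mutant difference of -0.73 was not called (95% interval -1.64 to 0.19). Acaa1a, a closely related gene on the same chromosome, gave -0.46 in ileum (adjusted p = 0.181) on its brightest probe set and -1.03 (adjusted p = 0.00128) on another, which was also higher in mutant jejunum than in ileum (0.83, adjusted p = 0.0221). Probes can bind both thiolase transcripts, so how the signal divides between them is uncertain.

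Cat encodes catalase, which removes the hydrogen peroxide of peroxisomal oxidation. It was at 11.65, 11.80 and 11.86 in control jejunum, 11.32, 11.10 and 11.11 in mutant jejunum and 10.24, 10.06 and 10.28 in ileum. The groups did not overlap, with mutant jejunum between the controls. Cat fell by 0.59 ± 0.11 in mutant jejunum (SE; limma adjusted p = 0.0137), was 2.98-fold lower in ileum than in control jejunum (adjusted p = 7.89e-06) and was 1.98-fold higher in mutant jejunum than in ileum (adjusted p = 0.00134). A second probe set of Cat gave -0.57 in mutant jejunum (adjusted p = 0.0935) and 0.67 for mutant jejunum minus ileum (adjusted p = 0.0614), neither of them called.

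The promoter window of Cat is shown because it, too, holds a near match to the nuclear receptor repeat and because the gene was called in all 3 comparisons. It lies at chr2:103485104-103485403 on the minus strand of GRCm38.p6, and the capitals mark the match, which begins at base -204 from the gene start.
Cat promoter: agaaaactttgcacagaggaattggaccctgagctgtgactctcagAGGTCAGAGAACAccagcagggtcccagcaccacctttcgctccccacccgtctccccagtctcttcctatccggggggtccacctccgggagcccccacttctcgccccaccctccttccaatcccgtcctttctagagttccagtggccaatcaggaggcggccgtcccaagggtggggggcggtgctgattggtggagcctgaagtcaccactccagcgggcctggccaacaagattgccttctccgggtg

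Hsd17b4, the peroxisomal bifunctional enzyme for branched and very long chains, was 2.43-fold lower in ileum than in control jejunum (limma adjusted p = 0.00184). Its ileum arrays were at 9.94, 9.84 and 9.58, and all 6 jejunum arrays lay between 10.51 and 11.34. Ehhadh, the other bifunctional enzyme and a classic PPARα target in rodent liver, was lower in ileum (-0.87 ± 0.21, SE; adjusted p = 0.0173). Pex11a, which promotes peroxisome division, was 2.15-fold lower in ileum (adjusted p = 0.00216), and Phyh, which starts the alpha oxidation of phytanic acid, was 2.11-fold lower (adjusted p = 0.0031). Phyh was at 11.86, 11.87 and 11.94 in control jejunum and 11.47, 11.18 and 10.75 in mutant jejunum. The mutant arrays of Phyh all lay below the controls, but the difference of -0.75 was not called (adjusted p = 0.0527). The other genes of this group gave -0.21 (Ehhadh), -0.21 (Hsd17b4) and -0.37 (Pex11a) in mutant jejunum, and none was called.

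Acot1 and Acot2 encode neighbouring acyl-CoA thioesterases, of cytosol and mitochondria, which release free fatty acids. Acot1 was lower in ileum (-0.68 ± 0.19, SE; limma adjusted p = 0.0359), and its levels lay between 5.36 and 6.43, close to the filter level. Acot2 gave -0.62 in ileum (adjusted p = 0.11) and 0.41 in mutant jejunum (adjusted p = 0.436), neither of them called. A probe set annotated to both genes, at 5.43 to 6.34 and so also close to the filter level, gave -0.23 in ileum and 0.16 in mutant jejunum. Which of the transcripts it reads was not tested.

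Between mutant jejunum and control ileum, the 14 genes that were higher in the mutant were Cpt2, Slc25a20, Acadvl, Hadha, Hadhb, Hadh, Acaa2, Eci2, Ech1, Etfb, Etfdh, Hsd17b4, Acaa1b and Cat. The largest of these differences were 3.51 for Acaa1b, 1.07 for Hsd17b4, 0.98 for Acaa2 and 0.98 for Cat. Ech1, the dienoyl-CoA isomerase, was higher by 0.58 (limma adjusted p = 0.0246) although neither comparison with control jejunum called it. Of the 22 genes lower in ileum than in control jejunum, 12 were among these and 10 were not called between mutant jejunum and ileum. Both comparisons use the same ileum arrays, so an overlap of their calls is favoured in advance. The split is a description and was not tested. The differences of the 10 ran from -0.02 for Acat1 and 0.14 for Crat, through 0.32 for Phyh, 0.37 for Acot1, 0.41 for Pdk4 and 0.42 for Decr1, to 0.66 for Ehhadh, 0.67 for Acadl, 0.73 for Pex11a and 0.84 for Crot.

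The mutant calls rested on few arrays. Without control jejunum 2, control jejunum 3 or mutant jejunum 2 the number of genes that fell dropped from 4 to 1, and over all single omissions it ran from 1 to 6. Acat1 and Slc25a20 were called under every single omission. Crat lost its call without control jejunum 1, 2 or 3 and without mutant jejunum 2 or 3 (limma adjusted p = 0.0708, 0.0854, 0.137, 0.0946 and 0.0755). Acaa2 lost it without control jejunum 2 or 3 or mutant jejunum 2 (adjusted p = 0.0516, 0.06 and 0.0553), and Cat without the same arrays (0.0668, 0.0752 and 0.0704). Phyh gained a call without mutant jejunum 1 (0.027) or control ileum 3 (0.0291), and Decr1 without control ileum 3 (0.0465). The signs of the 5 called differences were the same in all 45 of these values. With no scaling between arrays, and with arrays centred on their medians, the split changed from 1 higher and 4 lower to 1 higher and 0 lower, Slc25a20 being the gene that was called.

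In ileum the number of genes lower than in control jejunum ran from 16, without control jejunum 1, to 22 over the single omissions. Of the 22 genes, 15 were called under every omission, and Crot, Acadl, Eci2, Etfb, Pdk4, Ehhadh and Acot1 lost their call under at least 1 of them, while all 198 values kept their sign. The highest adjusted p of these 7 in limma was 0.0992 for Crot, 0.157 for Acadl, 0.14 for Eci2, 0.0703 for Etfb, 0.0668 for Pdk4, 0.0592 for Ehhadh and 0.132 for Acot1. Acot2 was called without control ileum 1 (0.0361). Without the 3 arrays that carried adiponectin signal (mutant jejunum 2, control ileum 2 and control ileum 3), which left 1 ileum array and assumed that it varies like the other groups, 5 genes were called lower in ileum (Crot, Acaa2, Decr1, Acaa1b and Cat) and all 22 kept a negative sign. The same omission left 0 genes called in mutant jejunum and 0 between mutant jejunum and ileum, with every sign kept. With no scaling between arrays the median of all probe sets in ileum shifted by -0.40, that of the members was -1.09, and 30 members were called lower and 0 higher.

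The count of 14 genes higher in mutant jejunum than in ileum also moved with single arrays. It was 4 without mutant jejunum 1, 6 without mutant jejunum 2, 9 without control ileum 1, 4 without control ileum 2 and 9 without control ileum 3. The 4 genes called under every omission were Cpt2, Acaa2, Acaa1b and Cat, and all 126 values kept their sign. Eci2 lost its call under all 9 omissions and Etfb and Hadh under 8 each.

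**Figure D4:**
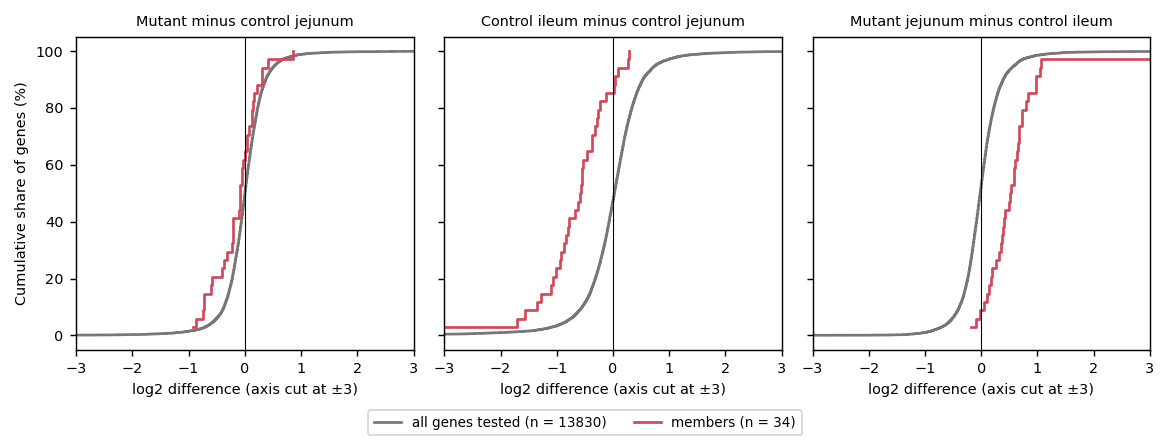
Cumulative share of genes (vertical axis, percent) by log2 difference (horizontal axis, cut at 3 in both directions) in 3 comparisons, for the 34 members in red and all 13830 genes tested in grey. The red curve lies to the left of the grey one in ileum, with medians of -0.58 and 0.03, close to it in mutant jejunum, with -0.09 and 0.00, and to its right for mutant jejunum minus ileum, with 0.52 and -0.02.

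The arrays of a group differed in how the members stood as a whole. The mean of the 34 genes, each centred on its mean over the 9 arrays, was 0.28, 0.32 and 0.26 in control jejunum, 0.32, 0.09 and 0.01 in mutant jejunum and -0.39, -0.45 and -0.45 in ileum. Mutant jejunum 1 thus stood among the controls, and the other mutant arrays stood lower but well above ileum. Mutant jejunum 1 was the highest mutant array for 26 of the 34 genes (76.5%, beside 31.1% of all genes), and mutant jejunum 3, the array that stood apart, was the lowest for 20 (58.8%, beside 39.3%). These shares are descriptions without a test. Within control jejunum the members had a median SD of 0.13, against 0.16 over all genes. The median SD was 0.16 against 0.20 in mutant jejunum, and 0.13 against 0.18 in ileum. The largest SD was that of Acaa1b in control jejunum (0.50) and mutant jejunum (1.00).

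Genes around the spiral were followed in 4 further lists. Over all genes tested, 2.1% were called higher and 2.29% lower in mutant jejunum, and 8.79% higher and 9.12% lower in ileum. The counts of these short lists were not tested against those shares. Of 11 genes for fatty acid activation and malonyl-CoA, 1 fell in mutant jejunum, and 3 were lower and 1 higher in ileum. Slc27a2, a very long chain acyl-CoA synthetase, was at 10.77, 11.05 and 11.03 in control jejunum, 9.65, 8.81 and 8.55 in mutant jejunum and 7, 7.29 and 7.97 in ileum, with no overlap between groups. It fell by 1.95 in mutant jejunum (limma adjusted p = 0.0039) and was lower in ileum (-3.53, adjusted p = 2.17e-05). The synthetase Acsl5 (-1.14) and the transporter Slc27a4 (-0.84) were lower in ileum, and Acaca, which makes malonyl-CoA, was higher (0.70, adjusted p = 0.0166). Acaca did not pass when control jejunum 1 or 2 or control ileum 1 or 2 was left out (adjusted p = 0.0506 to 0.0529).

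Of 19 other enzymes of oxidation and ketone body use, none was called in mutant jejunum in limma. At an unadjusted p under 0.05, 2 were higher and 5 lower there, and the share of all genes at that threshold was not counted. In ileum 6 were lower and 1 was higher, beside 9.12% and 8.79% of all genes. The thioesterase Acot12 was lower in ileum (-4.01, limma adjusted p = 1.6e-05), as was the dehydrogenase Acad11 (-1.12). Oxct1, which lets a tissue burn ketone bodies, was at 10.66, 10.31 and 9.79 in control jejunum, 10.78, 11.21 and 10.87 in mutant jejunum and 12.34, 11.98 and 11.48 in ileum. It was higher in ileum than in control jejunum by 1.69 (adjusted p = 0.00101), and its mutant difference of 0.70 was not called (adjusted p = 0.163). Of 12 genes for building peroxisomes, 1 was lower in ileum (Pex16, -0.94, limma adjusted p = 0.00155), a share near the 9.12% of all genes. None of the 12 was called in mutant jejunum in limma or at an unadjusted p under 0.05.

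Of 16 PPAR regulators and other PPAR target genes, 1 rose and 1 fell in mutant jejunum, beside 2.1% and 2.29% of all genes. In ileum 2 were higher and 5 lower, beside 8.79% and 9.12% of all genes. Cd36, a fatty acid receptor, fell by 3.66 in mutant jejunum (limma adjusted p = 0.00284) and was lower in ileum (-4.07, adjusted p = 0.000422, and -4.87 without control ileum 3). Angptl4, a secreted inhibitor of lipoprotein lipase, rose in mutant jejunum by 1.48 (adjusted p = 0.0253) and was higher in ileum by 1.74 (adjusted p = 0.00334). Its mutant call was lost without any 1 of the 6 jejunum arrays except control jejunum 3 (adjusted p = 0.0536 to 0.0859). Fabp1, a fatty acid binding protein, stood at 13.70 on all 3 control jejunum arrays, near the top of the scale (13.9), so that differences from it may be understated. It was at 13.01, 11.94 and 12.13 in mutant jejunum, all below control jejunum, but the difference of -1.34 was not called (limma adjusted p = 0.397). In ileum it was at 10.02, 8.63 and 5.99 and was called lower (adjusted p = 0.000677). The 3 groups share 1 estimate of the spread, and the ileum arrays of Fabp1 spread widely. The ileum difference of Fabp1 was -5.49, or -6.37 without control ileum 1 and -4.36 without control ileum 3. Ppara, which encodes PPARα, gave -0.44 in mutant jejunum (limma adjusted p = 0.263) and -0.35 in ileum (adjusted p = 0.224).

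Promoter windows of 300 bases from RefSeq (GRCm38.p6) were matched for 29 of the 34 genes and searched on both strands for short motifs. The direct repeat of AGGTCA with a single free base between the copies was sought with up to 2 mismatches over its 12 defined letters. It occurred in 4 of 29 windows (13.8%: Slc25a20, Cat, Echs1 and Etfa), against 4.4% of 27025 windows of all genes. With up to 1 mismatch it was in 0 of 29 windows, against 0.644% of all, and no member held it exactly. Of the 4 genes, Slc25a20 rose and Cat fell in mutant jejunum, and Echs1 and Etfa were called in neither comparison. The estrogen-related receptor motif TCAAGGTCA and the HNF4 motif CAAAGTCCA were in 0 of 29 windows, against 0.466% and 0.555% of all. The GATA letters AGATAA or TGATAA were in 5 of 29 windows (17.2%: Acadvl, Bdh1, Crot, Eci2 and Pdk4), against 21.0% of all. None of these 5 genes was called between mutant and control jejunum, where 1 of all 34 members was higher and 4 were lower. Acadvl, Crot, Eci2 and Pdk4 were lower in ileum and Bdh1 was not called, beside 22 of all 34 members lower there. Whether GATA factors act on these genes was not tested. A match describes letters in the window and is not a binding site.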

How the data were processed

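The 34 genes and the gene lists were chosen with earlier results of these data known. Total RNA was purified on Qiagen RNeasy columns and labelled by the Affymetrix one-cycle method, per the labels' protocols. The deposited values are linear intensity values, 1 for each array and probe set, which the authors made with GCOS, per the submitters' processing notes; the sources used here do not give its settings. Arrays differed in brightness, so log2(intensity + 16) was quantile-normalized over 45101 probe sets less 64 controls. Probe sets above the 40th percentile (4.95) on at least 3 arrays were tested (29307). The annotation table names 1 gene for 34945 probe sets, several for 932 and none for 9160. limma 3.58.1 in R 4.3.3 fitted all 9 arrays with 3 contrasts, an intensity trend and two-sided tests, with Benjamini-Hochberg adjustment over all probe sets tested and a threshold of 0.05. The 3 groups share 1 estimate of the spread. Quantile normalization hides a shift shared by all transcripts. For each gene the brightest tested probe set was used, and other probe sets are named where they were not called alike. All members are accounted for. Of each pathway list, at most 4 called genes per comparison, those with the largest differences, and genes called in both comparisons with control jejunum may be named. Vil1, Adipoq and Ppara lie outside this rule and were named after their values were seen. Samples were grouped by their titles, and same-numbered arrays are not paired (correlations of their deviations from the group means between -0.07 and 0.17). Alternatives were other scaling, pseudocount, filter, trend, group subsets, array weights, a replicate block and the omission of each array.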

Additional observations from a re-analysis of the deposited data

How the results depend on the processing

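Of the 41 calls in the 3 comparisons, 4 were kept under every alternative setting (Acaa2, Decr1, Acaa1b and Cat, lower in ileum). All 5 mutant calls, 18 of the 22 ileum calls and all 14 calls of mutant jejunum against ileum were lost under at least 1. Of 902 alternative values of these calls, 724 passed the threshold, 178 did not and none changed sign. Values moved by over 1.5-fold for 12 of the 14 calls of mutant jejunum against ileum with no scaling and for Acaa1b with a pseudocount of 64. Crot in ileum also moved so far (-1.54) without the 3 arrays with adiponectin signal. Among results not called, 63 alternative values gained a call, 63 changed sign without one and 4 changed sign with one. The last 4 came with no scaling between arrays: Acadm (-0.54) and Bdh1 (-0.56) in ileum minus control jejunum, and Bdh1 (0.54) and Acat1 (0.61) in mutant jejunum minus ileum; that setting moved the median of all probe sets by -0.40 and 0.41 in these comparisons. The number of genes that fell in mutant jejunum was 0 with no scaling, 0 with arrays centred on their medians, 7 with array weights and 1 to 6 with single arrays left out. The number higher in mutant jejunum than in ileum was 31 with no scaling, 6 without the intensity trend, 5 in a fit of these groups alone and 4 to 15 with single arrays left out; the number lower in ileum was 16 to 22. Leaving out the 3 arrays with adiponectin signal, an alternative chosen after seeing the data, left 1 ileum array and fewer arrays to fit. All 41 called differences kept their sign under this omission. The mean member level was 0.44, 0.35 and -0.80 in control jejunum, mutant jejunum and ileum with no scaling, and -0.57 in ileum with arrays centred on their medians and -0.38 with a pseudocount of 64. With the replicate number as a block the counts were 1 higher and 5 lower in mutant jejunum, 0 and 20 in ileum, and 12 and 0 in mutant jejunum against ileum, but the numbers do not pair the arrays. The cause of these shifts was not tested.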

Other observations

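Probe sets annotated to both Acaa1b and Acaa1a, which are not counted among the 58, were lower in ileum than in control jejunum (-1.08, limma adjusted p = 0.00153, and -1.12, adjusted p = 0.000643). In mutant jejunum they gave -0.49 (adjusted p = 0.161) and -0.52 (adjusted p = 0.0905), and neither was called. Their ileum differences were smaller than the -4.23 of the probe set annotated to Acaa1b alone. Which of the 2 thiolase transcripts each probe set reads was not tested.

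Colipase, Clps, a pancreatic gene, was higher in ileum than in control jejunum by 2.05, and the summed pancreatic markers were 11.02 to 12.42 in ileum against 9.89 to 10.04 in control jejunum. It was the only one of 5 pancreatic markers called higher in ileum, none was lower, and the median difference of the 5 was -0.12. The part of pancreatic RNA in the member differences was not tested.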
